A study of Sus scrofa domesticus with 4 samples.

Results

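The genes of the gonadotropins and of the receptor that drives them were followed in the anterior pituitary of pregnant and cyclic pigs. They are FSHB, which encodes the beta chain of follicle-stimulating hormone (FSH), LHB, the beta subunit of luteinizing hormone (LH), CGA, the alpha subunit that both hormones share, and GNRHR, the receptor of gonadotropin-releasing hormone (GnRH). Members were chosen by gene symbol, through the RefSeq accession of each array probe. The 4 genes had 6 of the 43603 probes: 1 for FSHB (NM_213875), 2 for LHB (NM_214080), 1 for CGA (NM_214446) and 2 for GNRHR (NM_214273). The array holds 2459 genes with a symbol in all.

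FSH and LH are made in the gonadotrope cells of the gland, each as a pair of the shared alpha subunit with its own beta subunit. GnRH from the hypothalamus reaches the gonadotrope in pulses, acts through GNRHR and drives both beta subunit genes. FSHB is in addition raised by activin and restrained by inhibin and follistatin. Estradiol and progesterone from the ovary feed back on the hypothalamus and on the gonadotrope. In the luteal phase and in early pregnancy a corpus luteum secretes progesterone, and CGA is also the alpha subunit of thyrotropin in another cell type of the gland.

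Of 8 mature gilts (young sows, Large White x Polish Landrace, about 110 kg), 4 had been mated and carried conceptuses on days 12 to 13 of pregnancy, and 4 unmated gilts were on days 12 to 13 of the estrous cycle. The cycle day was judged from ovarian morphology and pregnancy from the presence of conceptuses, per the labels. Each of 4 Agilent arrays read the RNA of 1 pregnant and 1 cyclic gilt in a pair of dyes, so that the gilts of an array share its handling. Per the label of each sample, the pregnant gilt was read in Cy3 on arrays 1 and 3 but in Cy5 on arrays 2 and 4, whereas the text of the labelling protocol assigns Cy3 to pregnant RNA throughout. Directions below follow the sample labels. With these dyes the log2 ratios of the 6 pairs of arrays correlated over all tested probes at r = 0.0193 to 0.445. Array 2 had r = 0.39 and 0.38 with arrays 1 and 3, which have the other orientation. Array 4 had only 0.07 and 0.02 with them, too small to bear on the dyes of array 4. With array 2, which has the same orientation and so shares any dye effect, array 4 had r = 0.35.

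The measurement is the log2 ratio of pregnant over cyclic on each array, after background correction and loess normalisation within the array. Values are the ratio fitted with a dye effect, followed by the SD over arrays, and how precise each value is depends on the number of arrays. A change was called at an adjusted p under 0.05 (limma with Benjamini-Hochberg adjustment over 21624 tested probes). By that rule 0 probes were called, 0% of those tested, while 3903 probes, 18.0%, had an unadjusted p under 0.05. Of these 2256 were higher and 1647 lower in pregnant gilts, 57.8% higher, and with arrays only centred on their medians 82.1% of 2554 such probes were higher. A probe can also be described by its sign alone: 11.9% of tested probes were negative and 15.0% positive on every array that gave a value. All 6 member probes passed the filter on dim spots through both groups, and each of their 48 spot channels was well above background. Spots of the members were 17.2 to 11608 times as bright as the local background, none was saturated, and none lay in the dim area that array 4 carries. A flag for an uneven spot fell on 2 of the 24 member spots, both on array 1 and both in Cy5, and those spots were left out of the fit. Local background flags fell on 13 of the 24, including every spot of LHB, and those spots were kept.

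FSHB had the most negative ratio of the members, and the pregnant gilts differed widely among themselves. Its log2 ratio was -3.36 on array 2, -1.99 on array 3 and -0.32 on array 4. The pregnant gilt thus had the lower level on each of these arrays, 10.2-fold on array 2, 3.96-fold on array 3 and 1.25-fold on array 4. The spot on array 1 was left out because its Cy5 image, which there holds the cyclic gilt, was uneven, and its ratio as read was -2.23. With that spot the 4 arrays had 1 sign, and the deposited table of the authors gives the same order, with -2.15, -3.44, -1.87 and -0.46 on arrays 1 to 4.

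**Figure D1:**
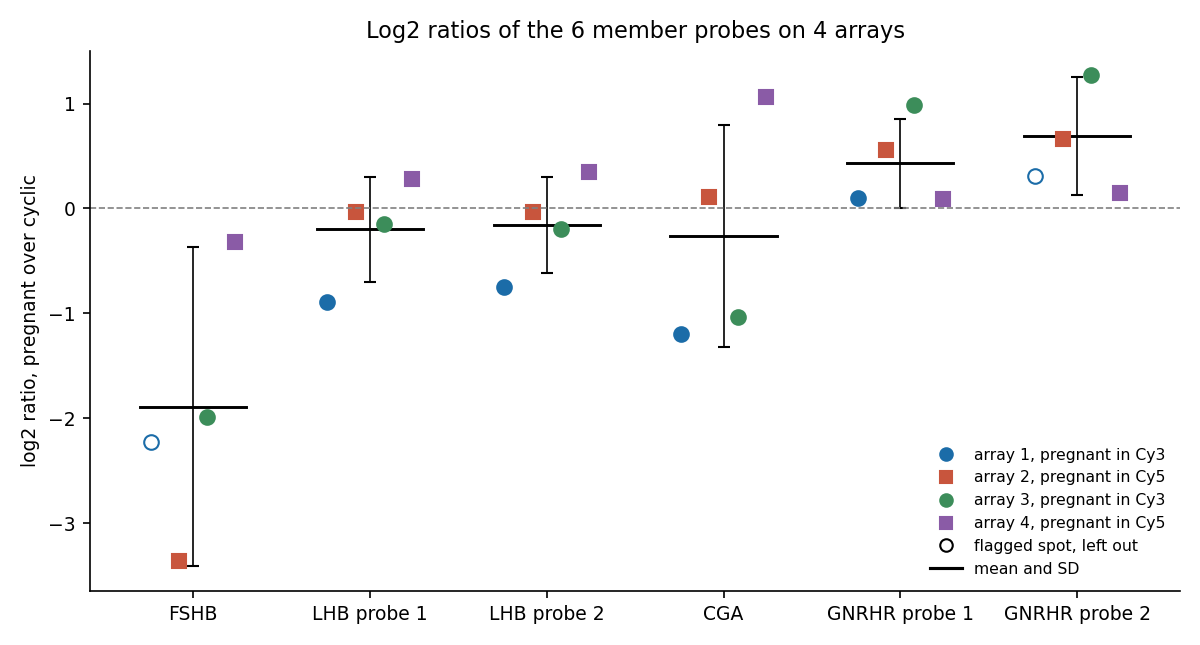
Log2 ratio of pregnant over cyclic (vertical axis) for the 6 probes of FSHB, LHB, CGA and GNRHR on the 4 arrays, with circles where pregnant RNA carried Cy3, squares where it carried Cy5, open symbols for flagged spots that were left out, and the mean with its SD over the unflagged arrays as lines. FSHB runs from -3.36 to -0.32, the probes of GNRHR lie above 0 on every array, and CGA splits by dye orientation.

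The fitted ratio of FSHB was -1.91 ± 1.52 (SD, n = 3), 3.76-fold lower in pregnant gilts, with a 95% confidence interval from -3.84 to 0.01. It ranked as the 7th most negative of the 21624 tested probes, and its SD over arrays was larger than that of 99.8% of them. It did not pass the threshold (limma, adjusted p = 0.279). An exact sign-flip permutation test over the 3 arrays gave a two-sided p of 0.25, the smallest that 3 arrays allow, and 0.125, again the smallest possible, over 4 arrays with the uneven spot kept. With that spot the mean was -1.97 ± 1.25 (SD, n = 4). In whole-gland RNA, fewer gonadotropes and less of a transcript in each gonadotrope cannot be told apart.

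The levels of the single gilts show where this spread lies. On the normalised log2 channel scale the cyclic gilts had FSHB levels of 14.97, 14.99 and 15.39 on arrays 2 to 4. The pregnant gilts of the same arrays had 11.62, 13.01 and 15.07. The cyclic gilts lay close together, within 1.33-fold, and the pregnant gilts were spread over a 10.9-fold range. The pregnant gilt of array 4 was as high as the cyclic gilts and made the groups overlap. With the uneven spot kept, array 1 added 14.50 for its cyclic and 12.27 for its pregnant gilt, and the cyclic range became 1.85-fold. The other 3 pregnant gilts then lay below every cyclic gilt. Channel levels that do not overlap between the groups were found for 1.36% of tested probes with pregnant lower and 2.52% with pregnant higher, and none of the 6 member probes was among them.

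**Figure D2:**
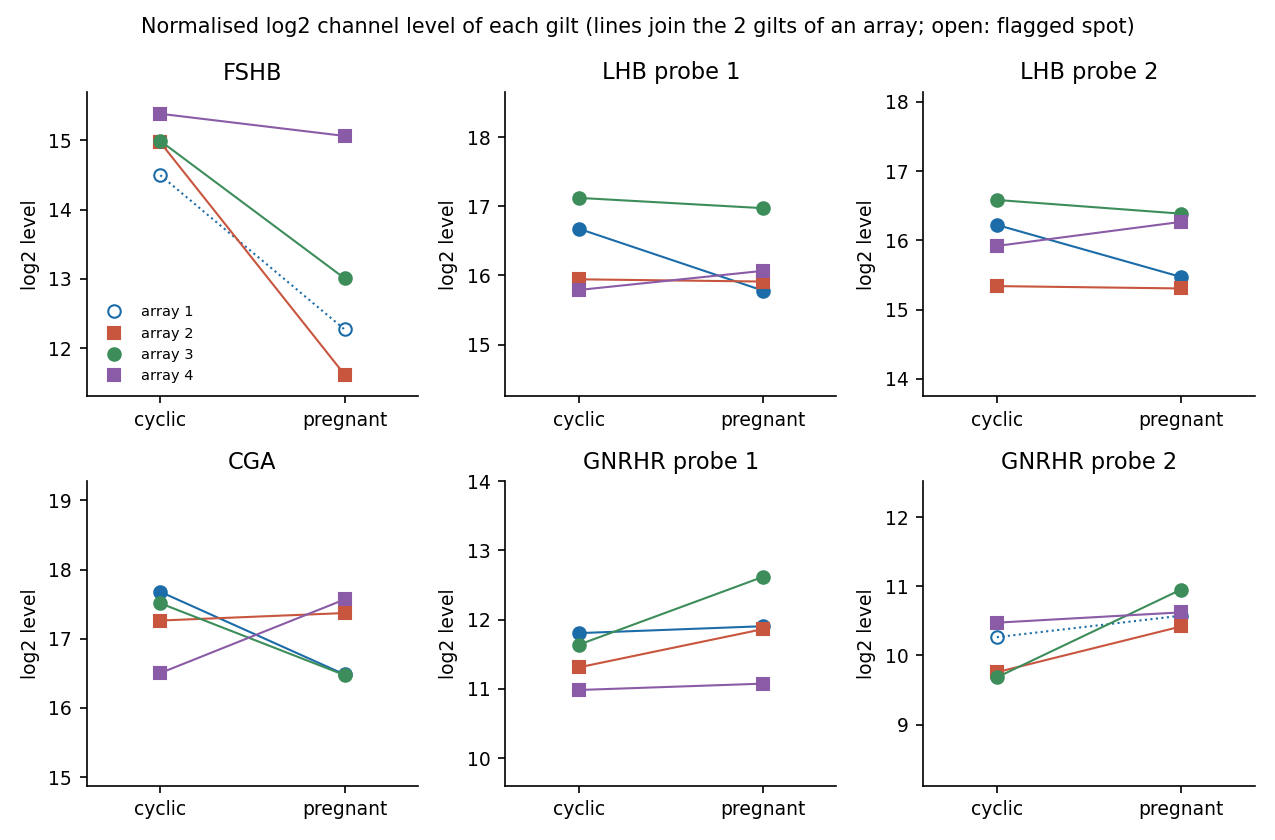
Normalised log2 channel level (vertical axis, same span in each panel) of the cyclic and the pregnant gilt of each array for the 6 probes, with lines joining gilts of 1 array and open symbols for flagged spots. For FSHB the cyclic gilts lie between 14.50 and 15.39 and the pregnant gilts between 11.62 and 15.07.

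The place of FSHB among all probes was similar on arrays 1 to 3. On array 2 only 2 of 21248 probes had a lower ratio, and on array 3 36 of 21436 did. The uneven spot of array 1 lay below all but 6 of 21181 probes. On array 4, where the gilts differed little, 1374 of 20884 probes, 6.58%, were lower. The negative sign on array 4 also rested on the loess step: with each array only centred on its median, the ratios of arrays 2 to 4 were -2.64, -2.19 and 0.69.

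**Figure D3:**
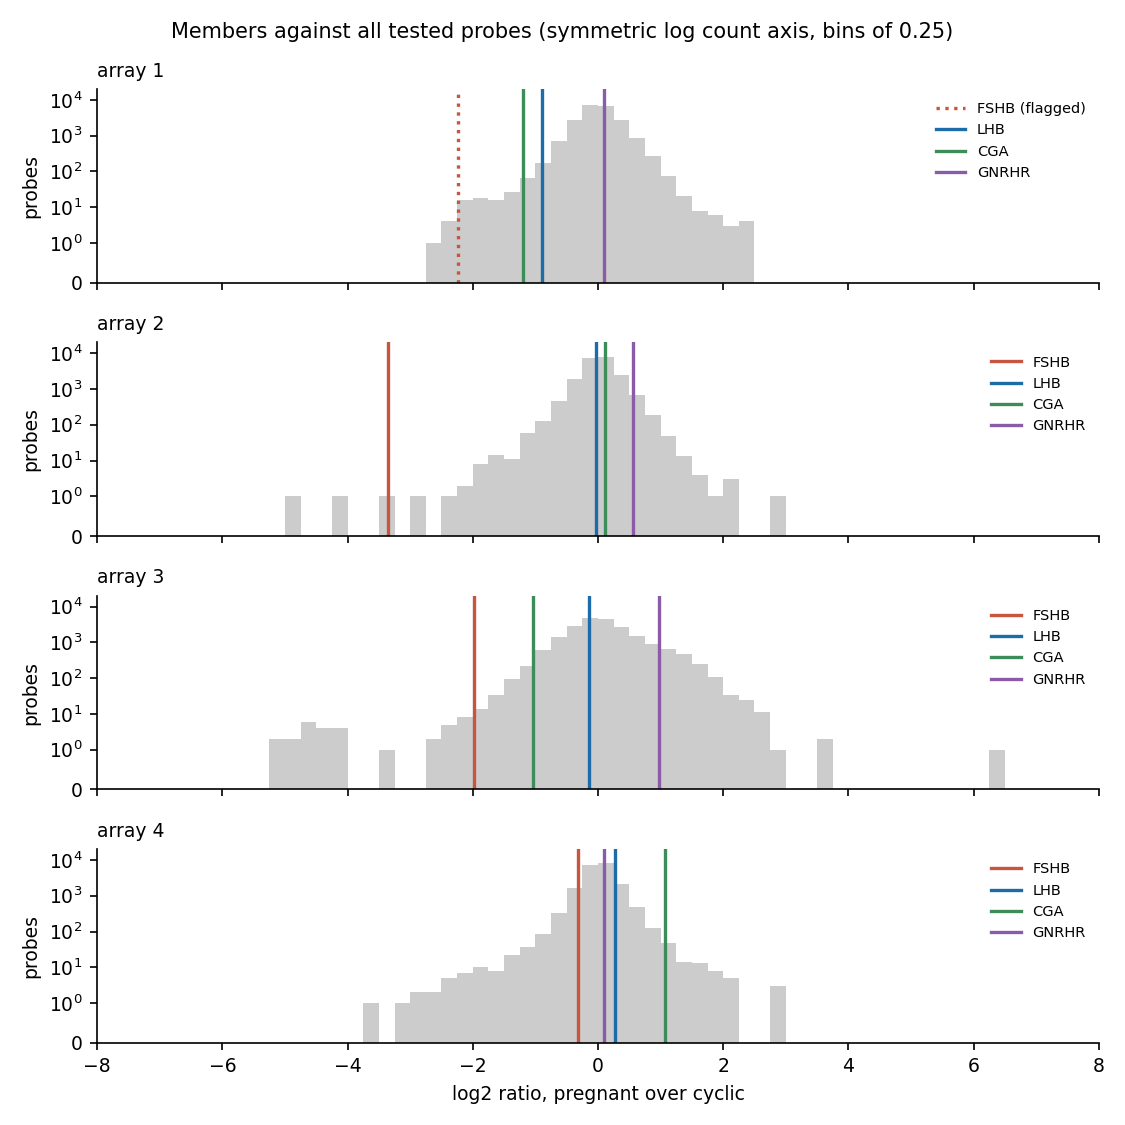
Number of tested probes (vertical axis, symmetric log scale) by log2 ratio of pregnant over cyclic (horizontal axis, bins of 0.25) on each array, with vertical lines for the leading probe of each member, dotted where its spot was flagged. FSHB stands at the lower edge on arrays 1 to 3 and within the bulk on array 4, while LHB lies within the bulk on arrays 2 to 4.

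LHB, whose product is the beta subunit of the hormone that maintains the corpus luteum, did not share this pattern. Its brighter probe had log2 ratios of -0.89, -0.03, -0.15 and 0.28 on arrays 1 to 4. The other probe had -0.75, -0.03, -0.20 and 0.35, so the 2 probes differed by at most 0.14 on any array. After loess only the gilts of array 1 were far apart. With each array only centred on its median, the brighter probe had -1.83, 0.93, -0.52 and 1.36 on arrays 1 to 4. These were negative where pregnant RNA carried Cy3 and positive where it carried Cy5. The fitted ratio after loess was -0.20 ± 0.50 (SD, n = 4) for the brighter and -0.16 ± 0.46 for the other probe. Neither passed (limma, adjusted p = 0.511 and 0.551), and the 95% confidence interval of the brighter probe ran from -0.59 to 0.19. Its exact sign-flip p over 4 arrays was 0.625.

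The channel levels of LHB overlapped throughout. For the brighter probe the pregnant gilts had 15.78, 15.91, 16.97 and 16.07 on arrays 1 to 4, and the cyclic gilts 16.68, 15.94, 17.12 and 15.79. Both gilts of array 3 were higher than the other 6. The range was 2.28-fold among pregnant and 2.52-fold among cyclic gilts, so LHB lacked the contrast in spread that FSHB had between the groups. That contrast was not tested.

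CGA, the shared alpha subunit, split by dye orientation. Its ratios were -1.19 and -1.04 on arrays 1 and 3, where pregnant RNA carried Cy3, and 0.11 and 1.06 on arrays 2 and 4, where it carried Cy5. The fit gave -0.27 ± 1.06 (SD, n = 4) beside a dye effect of 0.85, larger than that of 99.7% of tested probes, whose median size was 0.11. Arrays of different orientation hold different gilts, so a dye effect and a difference between gilts cannot be told apart here. The ratio did not pass (limma, adjusted p = 0.453), with a 95% confidence interval from -0.71 to 0.18 that was computed after the dye effect was taken out. The split also depends on the dyes of the sample labels. With those of the labelling protocol CGA was negative on every array, at -1.19, -0.11, -1.04 and -1.06 on arrays 1 to 4.

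The pregnant gilts had CGA levels of 16.48, 17.37, 16.48 and 17.57 on arrays 1 to 4 and the cyclic gilts 17.68, 17.26, 17.51 and 16.50. In either group 1 orientation was high and the other low, with the cyclic gilt of array 2 nearer to the high side. The dye effects of both LHB probes had the same sign at 0.32, larger than in 90.9% and 90.4% of tested probes, while that of FSHB was 0.07. In the scan software's own ratios CGA was again lower on arrays 1 and 3 (-0.84 and -0.75) than on arrays 2 and 4 (-0.19 and 0.79). Its sign there did not split by dye orientation.

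The subunits were then set against each other on the same arrays. FSHB minus LHB was -3.32, -1.84 and -0.60 on arrays 2 to 4, with a mean of -1.92 ± 1.37 (SD, n = 3). FSHB minus CGA was -3.46, -0.95 and -1.38, with a mean of -1.93 ± 1.34. FSHB thus had a lower ratio than LHB and than CGA on each of the 3 arrays, and also on array 1 with the uneven spot kept (-1.33 and -1.03). Both pairs had an exact two-sided sign-flip p of 0.25, the smallest that 3 arrays allow, and 0.375 after Benjamini-Hochberg adjustment over the 3 pairs. With the uneven spot kept both had 0.125, and 0.188 after adjustment. LHB minus CGA had both signs, from -0.79 on array 4 to 0.89 on array 3, and a mean of 0.07 ± 0.71 (SD, n = 4; exact p = 0.875).

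GNRHR, the G protein-coupled receptor through which GnRH reaches these genes, had positive ratios on both of its probes. The brighter probe had 0.10, 0.55, 0.98 and 0.09 on arrays 1 to 4. The other had 0.66, 1.27 and 0.15 on arrays 2 to 4, and 0.31 from its uneven spot on array 1. Arrays 2 and 3 carried the difference in both probes, and on arrays 1 and 4 the gilts were nearly equal. The probes differed by up to 0.29 on an array, with the dimmer probe higher each time.

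The fitted ratio was 0.43 ± 0.43 (SD, n = 4), 1.35-fold higher in pregnant gilts, for the brighter probe, with a 95% confidence interval from -0.03 to 0.89. For the other it was 0.84 ± 0.56 (SD, n = 3), 1.79-fold higher, and 116th among the most positive probes. With 3 arrays the fit weights array 3, alone in its orientation, most, and the plain mean was 0.69. With the uneven spot kept the fit of that probe gave 0.60, so its size rests on that spot. Neither passed (limma, adjusted p = 0.292 and 0.235), and the exact sign-flip p of the brighter probe was 0.125, the smallest that 4 arrays allow. The brighter probe had an unadjusted p of 0.0605 and the other 0.00625, where 10.4% of tested probes were higher and 7.62% lower at an unadjusted p under 0.05. With median centring in place of loess, the brighter probe had -0.47 on array 1.

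The GNRHR levels overlapped between the groups. On the brighter probe the pregnant gilts had 11.91, 11.86, 12.62 and 11.08 and the cyclic gilts 11.81, 11.31, 11.64 and 10.98 on arrays 1 to 4. Both gilts of array 4 were low, and the pregnant gilt of array 3 was the highest of the 8. Over the 6 gilts with both values, the levels of GNRHR and FSHB had r = -0.71, and those of LHB and GNRHR r = 0.53 over 8 gilts. FSHB had r = -0.05 with LHB and 0.05 with CGA over 6 gilts. These r describe gilts that share arrays and dyes in pairs.

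The leading probes of the members kept their signs under the alternatives that were run unless the dyes were read differently. The second LHB probe turned to 0.03 with median centring. With the dyes of the sample labels, over 19 alternatives, the ratio of LHB (brighter probe) ran from -0.39 to -0.01, that of CGA from -0.50 to -0.03 and that of GNRHR (brighter probe) from 0.21 to 0.65. FSHB, which could be fitted in 15 of them, ran from -2.73 to -1.21. With the dyes as the labelling protocol reads, FSHB was 0.56 on arrays 2 to 4, with values of 3.36, -1.99 and 0.32. The others kept their signs there, but CGA moved to -0.85, outside its range with the labelled dyes (limma, adjusted p = 0.848). FSHB passed in 1 alternative, chosen after seeing the data: a separate-channel fit of the 8 gilts with flagged spots kept (-1.97, limma adjusted p = 0.0407), in which 6.49% of probes were called. It has no value in that fit with flagged spots left out, which called 5.27% of probes and 0 of the other members. GNRHR passed only without array 1 (0.65, limma adjusted p = 0.0281, flagged spots left out), in a fit that called 3404 probes, 16.8% of those tested. Its second probe also passed only there (0.84, limma adjusted p = 0.0184). That probe had no value on array 1 in the reported fit either, so its own array values were the same and only the other probes of the fit had changed.

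**Figure D4:**
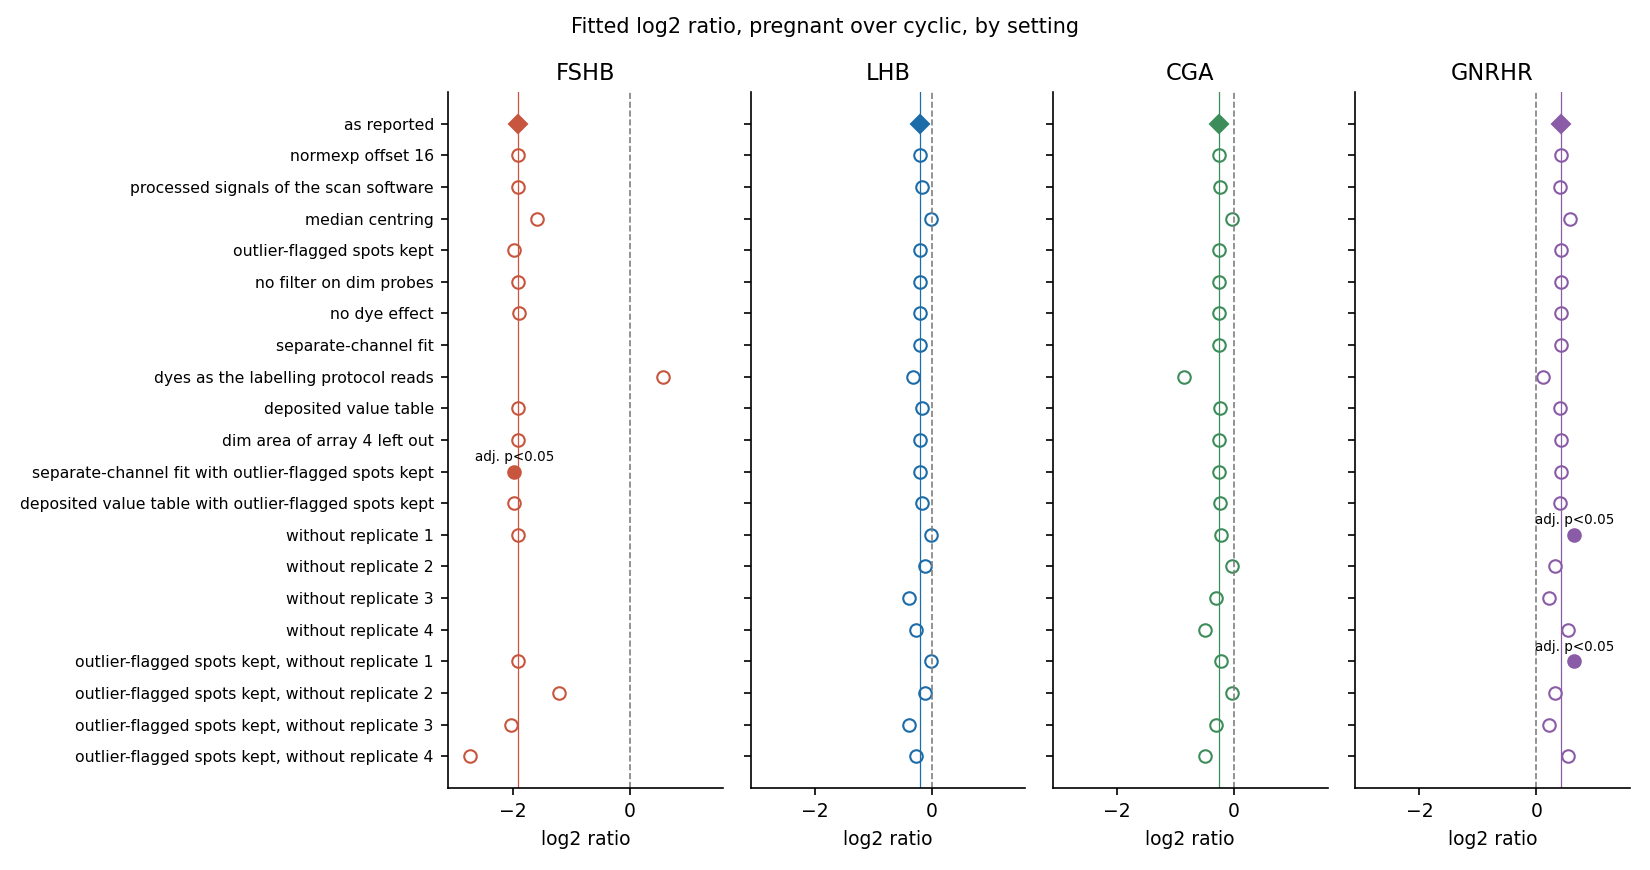
Fitted log2 ratio of pregnant over cyclic (horizontal axis) of the 4 members as reported (diamonds) and under each alternative (circles), filled where the adjusted p was under 0.05. FSHB lies between -2.73 and -1.21 with the dyes as labelled and at 0.56 with the dyes as the protocol reads. With the dyes as labelled LHB and CGA lie nearer to 0, and with those of the protocol CGA lies at -0.85.

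Genes that act around the gonadotrope were taken from lists, of which 0 genes passed (limma, adjusted p under 0.05, against 0% of all tested probes). The alternatives were looked up only for the 28 of these genes that are named below, chosen mainly by smallest unadjusted p. Among the 28, FOS, CTNNB1, GDF9, PRL and RAB27A passed without array 1, where 16.8% of probes were called. In the separate-channel fit, which called 5.27%, FOS, PRL, SMAD3, MAP2K1 and GDF9 of the 28 passed (limma, adjusted p = 0.00133, 0.0159, 0.0416, 0.0455 and 0.0490). List medians below stand beside 0.01 over all tested probes and -0.02 over the 1744 named genes tested. Of 15 transcription factors of the lineage 3 were on the array and 2 were measured. Both had small positive ratios: NR5A1, the nuclear receptor that marks gonadotropes, 0.03 ± 0.16, and NR0B1, its repressor, 0.04 ± 0.37 (SD, n = 4). The sign of each turned on leaving out an array. The list median was 0.03.

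Of 55 genes of GnRH receptor signalling 12 were measured, 4 positive and 8 negative, with a median of -0.02. The 2 with an unadjusted p under 0.05 were negative, and 7.62% of all tested probes were lower at that p. FOS, an immediate early factor that GnRH induces in gonadotropes, had -1.76, -0.60, -2.02 and -0.48 on arrays 1 to 4, a ratio of -1.22 ± 0.79 (SD, n = 4; limma, adjusted p = 0.235). MAP2K1, the kinase that activates ERK, had -0.53 ± 0.54, CTNNB1, a coactivator, -0.38 ± 0.47, and JUN, the partner of FOS, 0.28 ± 0.30. GNAQ, the G protein to which GNRHR couples, had 0.04 ± 0.11. FOS was more negative on the arrays with pregnant RNA in Cy3, as CGA was. FOS is made in most cell types of the gland.

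The activin, inhibin and follistatin group had 8 positive and 6 negative genes among 14 measured, with a median of 0.03. SMAD3, which carries the activin signal to FSHB, was positive on all arrays with 0.36, 0.52, 0.23 and 0.38, a ratio of 0.37 ± 0.12 (SD, n = 4; limma, adjusted p = 0.235). BMPR1B, a receptor of bone morphogenetic proteins, had 0.74 ± 0.85, and GDF9, a ligand of the oocyte, -0.42 ± 0.31. SMAD1, of the bone morphogenetic branch, had -0.30 ± 0.49. The 3 genes with an unadjusted p under 0.05 were SMAD3, BMPR1B and GDF9, and 18.0% of all tested probes had such a p. Of the genes that bear on FSHB directly, INHA, the inhibin alpha subunit, had 0.10 ± 0.17, INHBA, an activin subunit, 0.13 ± 0.19, and FST, the follistatin that binds activin, -0.09 ± 0.18. INHBB, the other beta subunit of activin and inhibin, had no named probe.

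Receptors through which steroids and other signals act had 5 positive and 5 negative genes of 10, with a median of 0.00. The nuclear progesterone receptor PGR had 0.66, 0.61, 0.15 and 0.33 on arrays 1 to 4, a ratio of 0.44 ± 0.24 (SD, n = 4; limma, adjusted p = 0.235). The membrane protein PGRMC1 had -0.40 ± 0.28 (SD, n = 3). These 2 had an unadjusted p under 0.05, as did 18.0% of all tested probes. The coactivator NCOA2 had -0.15 ± 0.23, the kisspeptin receptor KISS1R 0.13 ± 0.14 and the estrogen receptor ESR1, which mediates ovarian feedback, 0.13 ± 0.34.

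The other hormones of the gland put the gonadotropins in context. PRL (prolactin) had a ratio of -0.89 ± 0.83, POMC (the precursor of corticotropin) 0.16 ± 0.64 and GH1 (growth hormone) -0.01 ± 2.05 (SD, n = 4). TSHB, which pairs with CGA to form thyrotropin, ran from -4.85 on array 2 to 6.30 on array 3, a ratio of -0.02 ± 4.66 (SD, n = 4). The SDs of TSHB and GH1 were larger than the 1.52 of FSHB. Like CGA, GH1 was negative on arrays 1 and 3 (-0.94 and -2.39) and positive on arrays 2 and 4 (1.14 and 2.16). FSHB had the most negative fitted ratio of the 7 hormone genes, but PRL had the smallest unadjusted p (limma, 0.000655, against 0.0510 for FSHB). The 4 probes of PRL had fitted ratios from -1.06 to -0.66, and its brightest probe had 0.01 on array 2. Neither gene passed (limma, adjusted p = 0.235 and 0.279). Prohormone processing and secretory granule genes were negative in 9 of 10 measured, with a median of -0.13, beside 0.01 over all tested probes. The mean log2 ratio of 9 of these genes, those with a value on every array, was -0.25, -0.12, -0.42 and 0.19 on arrays 1 to 4. Only 1 gene had an unadjusted p under 0.05, where 18.0% of all tested probes did. It was the granule GTPase RAB3A at -0.32 ± 0.50. RAB27A, of the same family, had -0.35 ± 0.38, CPE, a carboxypeptidase of prohormones, -0.33 ± 0.23 (SD, n = 3), the convertase PCSK1 -0.23 ± 0.28 and SCG2, a granin abundant in gonadotropes, -0.15 ± 0.42. Values are those of the brightest probe of a gene. Among the genes named, probes of 1 gene disagreed in sign for PCSK1 (-0.23 to 0.20), POMC (-0.26 to 0.16), NR5A1 (-0.13 to 0.03) and ESR1 (-0.02 to 0.13). So did those of genes given only in counts and medians: GNAS (-0.46 to 0.14), SMAD4 (-0.27 to 0.15), PECAM1 (-0.26 to 0.20), CDH1 (-0.12 to 0.04) and CD8A (-0.05 to 0.04).

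**Figure D5:**
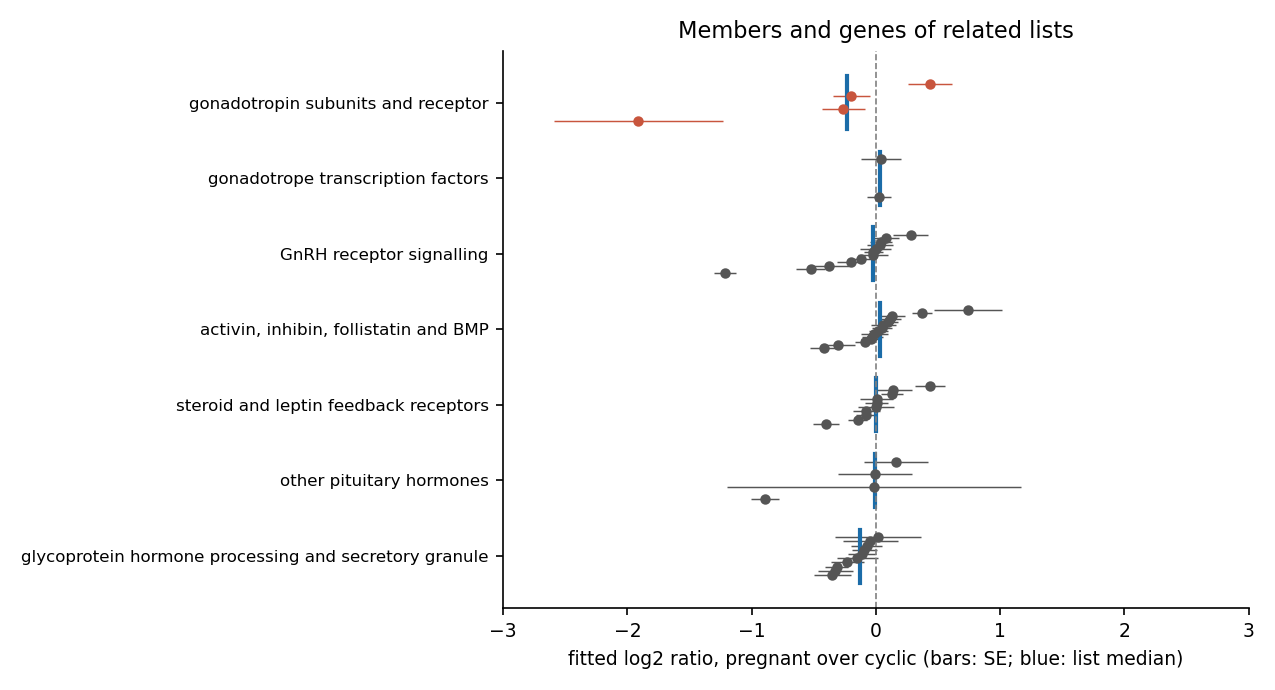
Fitted log2 ratio of pregnant over cyclic (horizontal axis) with its SE for each measured gene of 7 lists (rows), with the median of each list as a blue bar. FSHB, at -1.91, lies farther from 0 than any other gene shown, and 9 of 10 genes of processing and the granule are negative (list median -0.13).

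Markers of other cells of the gland were measured on the same arrays. The 3 measured markers of the neural and intermediate lobes had 1 positive and 2 negative ratios, with a median of -0.02. AVP, the vasopressin gene of neural lobe axons, was above background in 3 of 4 pregnant and 2 of 4 cyclic gilts and was not tested. Folliculostellate and stem cell markers had 1 positive and 3 negative ratios of 4 (median -0.10), and immune and blood markers 2 and 3 of 5 (median -0.05). Endothelial and stromal markers had 2 positive and 4 negative ratios of 6, with a median of -0.29. Of these 3 had an unadjusted p under 0.05, all lower, where 7.62% of all tested probes were lower at that p. The mean log2 level of 5 of these markers, those with a value on every array, was 9.80 to 10.1 in pregnant and 9.91 to 10.4 in cyclic gilts. Their part in the ratio of FSHB was not tested.

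The genes whose levels followed each member most closely were found by Pearson's r over the gilts, as a description. For FSHB, over 6 gilts and 1388 genes, they were ARNTL, a core part of the circadian clock (r = 0.98), NQO1, a quinone reductase (0.97), and PCSK1, a prohormone convertase (0.96). With so few gilts 15 genes had r over 0.9. With the uneven spot kept, over 8 gilts, r was 0.88 for ARNTL, 0.92 for NQO1 and 0.81 for PCSK1, which then ranked 9th, 2nd and 47th of 1582. The closest to LHB, over 8 gilts and 1329 genes, were VARS2 and DCAF11 (0.97 each) and the glycolytic enzyme TPI1 (0.96). Those to CGA were the granin CHGB and the ribosomal protein gene RPL7 (0.90 each) and GH1 (0.86). Those to GNRHR were ATXN3 (0.92), SOCS6 (0.92) and the cyclin CCND2 (0.88). Each gene's levels share arrays and dyes with those of the member.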

How the data were processed

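RNA of the anterior pituitary of 8 gilts was hybridised to 4 Agilent arrays (design 026440), 1 pregnant and 1 cyclic gilt on each. The deposited scanner files hold spot intensity per channel and, per spot, a log10 value of red (Cy5) relative to green (Cy3), made with Feature Extraction 10.7.3.1 per the file headers. The deposited value table of the authors holds log2 ratios, which matched the scan software's ratios turned to pregnant over cyclic by the sample labels, not centred (column medians 0.07, -0.08, -0.18 and -0.17). Since the scanner files give median and not mean signals, medians were used.

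Background was corrected by normexp (offset 50), and each array was normalised by loess with control spots at weight 0. Spots with a feature outlier flag were left out. Ratios were fitted in limma 3.58.1 (R 4.3.3) with a term for the dye. A probe was tested where 1 group or both had it well above background on each of the 4 arrays, with at least 3 unflagged arrays. Channel levels add Aquantile scaling. The limma fit was tested on simulated data. Probes were named through the accession of the scanner files and RefSeq's pig gene table (Sscrofa11.1), which gave 5578 probes of 2459 genes. The files name no genome build, so no coordinates are given.

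The members and gene lists were chosen with earlier results of these data known. Named are all member probes, up to 4 genes with the smallest p from each list, the other hormones, and the 3 genes most like each member. INHA, INHBA, FST, ESR1, GNAQ and SCG2 were added for their role after their values were seen. Of the list of transcription factors 1 gene is not reported here. Marker lists of other cells are given as counts and levels. Gilts were separate animals, 1 per channel.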

Additional observations from a re-analysis of the deposited data

Results flagged for a closer look

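Of 38 sets of 4 array values, 2 held a value far from the others by Dixon's test, where chance gives about 1 in 20, or 1.9. CTNNB1, a coactivator on the path from the GnRH receptor, had a log2 ratio of -1.08 on array 3 and -0.18 to -0.09 on the other arrays. KISS1R, the kisspeptin receptor, had 0.34 on array 3 and 0.04 to 0.08 on the others. Both lie on the array whose ratios had the widest spread (SD 0.581 over probes, against 0.276 to 0.333 on the others).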

How the results depend on the processing

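The count of probes called, 0 as reported, was 1 with a normexp offset of 16, 2 without the dye term, 1047 with a separate-channel fit and 1551 with that fit and flagged spots kept. It ran from 0 to 3526 on leaving out 1 array, with 3404 without array 1 and 4 without array 3 (3526 and 6 with flagged spots kept). FSHB was 0.56 with the dyes as the labelling protocol reads, as were FSHB minus LHB at 0.69 and FSHB minus CGA at 1.30, and FSHB passed at -1.97 in the separate-channel fit with flagged spots kept. GNRHR passed at 0.65 without array 1 and ran from 0.21 to 0.65 on leaving out 1 array. LHB minus CGA ran from -0.21 to 0.35 with the dyes as labelled, and was -0.013 without array 1. With the dyes as the protocol reads it was 0.53. FSHB has no value in the separate-channel fit or without array 2, 3 or 4 unless flagged spots are kept. CGA and the brighter LHB probe kept their direction and side of the threshold in all 20 alternatives.

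Among 28 other genes, 339 of 384 values kept direction and side, 35 reversed and 10 passed. The second GNRHR probe passed at 0.84 without array 1, where it had no value in the reported fit either. With the scan software's signals and with the deposited table, NR0B1 was -0.0020, GH1 0.0073 and GNAQ -0.060. With median centring the second LHB probe was 0.032, GH1 0.21, TSHB 0.12 and SCG2 0.083. With the dyes as the protocol reads, NR5A1 was -0.036, JUN -0.0044, SMAD3 -0.077, BMPR1B -0.46, PGR -0.032, PGRMC1 0.10, POMC -0.11, TSHB 3.09, PCSK1 0.045, INHA -0.14, INHBA -0.034, ESR1 -0.067 and GNAQ -0.023. On leaving out 1 array, NR5A1 ran from -0.059 to 0.11, NR0B1 from -0.16 to 0.25, POMC from -0.20 to 0.52, GH1 from -0.37 to 0.36, TSHB from -1.63 to 1.599, ESR1 from -0.065 to 0.33, GNAQ from -0.0083 to 0.089 and SCG2 from -0.32 to 0.024. The cause was not tested. Leaving out an array leaves 1 orientation with 1 array, whose spread is taken from the others. Array ratios are paired, 1 pregnant with 1 cyclic gilt, so the reported fit is a paired one. The alternatives that keep flagged spots beside another choice were chosen after seeing the data. Every member spot was well above background in both channels.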
